A study of Mus musculus with 12 samples.

Results

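The strongest binding sites of Hoxb13 in the postnatal mouse heart were the 494 peaks whose deposited strength was at least 60, out of 22284 Hoxb13 peaks (2.22% of the list). They were selected on that strength alone, a value the authors gave for each peak, so strength is given below as a description and nothing is tested with it. The other 21790 peaks of the list are called the remaining peaks. The study used chromatin immunoprecipitation followed by sequencing on heart ventricles taken at postnatal day 15 from mice of the outbred CD-1 strain. Its 12 libraries formed 4 groups of 3, namely Hoxb13 precipitates, their inputs, Meis1 precipitates and their inputs, and no group carried a further treatment or allele by the labels. By the protocol 1% of each heart's chromatin was set aside as input and the factors shared hearts, but the titles number the libraries of each factor separately, so whether the Hoxb13 and Meis1 lists come from the same hearts is unclear. Each factor had 1 deposited peak list made over 3 libraries, so the files used hold no value per heart or read count, and no difference below could be set against the spread between hearts. Intervals in brackets are exact binomial (Clopper-Pearson) 95% intervals, which cover counting error only and treat peaks as independent.

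Hoxb13 is the most posterior protein of the HoxB cluster, a homeodomain transcription factor best known from the prostate, the tail region and the distal gut. Hox proteins bind short AT-rich sites, and many do so with partners of the TALE homeodomain class such as Meis1. In the mouse heart Meis1 and Hoxb13 have been studied together as regulators of the withdrawal of cardiomyocytes from the cell cycle in the first weeks after birth. A ChIP-seq peak marks DNA enriched in the precipitate, whether the factor touched that DNA directly or through another protein.

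Strength among the strong peaks ran from 60.1 to 697, with a median of 83.5 and an interquartile range of 67.4 to 125. Among the remaining peaks it ran from 17.8 to 59.9, with a median of 21.2. Just inside the threshold lay peaks at Vamp4 (60.1), Glrx5 and Mier1, and just outside it lay peaks assigned to Gja1 and Jak3, each at 59.9. The second deposited value, an unnamed score, sat at its highest value in all 494 strong peaks and in 1177 (5.40%) of the remaining peaks, so it did not order the strong peaks.

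Of the 305 strong promoter peaks, 113 had their summit inside one of the 32817 promoter windows of RefSeq (GRCm38.p6, the assembly that mm10 names), each of which runs from 250 bp before to 50 bp after a gene start. Below are 8 of these windows, shown because they carry the motifs counted further on in genes described in the text. The first 6 belong to peaks above a strength of 100, as do 26 of the 113 windows, and the last 2 to peaks between 60 and 100, as do 87. Each is written 5′ to 3′ on the strand of its gene, and capitals mark copies of the searched motifs on either strand. Stx16 encodes a syntaxin of the trans-Golgi network and had the strongest peak of the list (697), Slc44a1 encodes a choline transporter (308), and Ska2 encodes a spindle and kinetochore protein (171). Arntl encodes the clock factor Bmal1 (144), Bnip3 a mitochondrial receptor for mitophagy that is induced by hypoxia (116), and Arrdc4 an arrestin-domain protein related to Txnip (108). Atp5b (64.9) encodes a subunit of the ATP synthase, and Top2a (61.4) a DNA topoisomerase of dividing cells.
Stx16, chr2:174076052-174076351 (plus strand): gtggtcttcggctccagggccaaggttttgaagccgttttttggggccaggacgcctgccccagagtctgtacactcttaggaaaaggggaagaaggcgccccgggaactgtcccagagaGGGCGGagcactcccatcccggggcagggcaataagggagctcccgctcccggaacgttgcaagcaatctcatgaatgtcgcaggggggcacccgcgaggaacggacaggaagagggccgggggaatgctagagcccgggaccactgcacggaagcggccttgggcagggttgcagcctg
Slc44a1, chr4:53440166-53440465 (plus strand): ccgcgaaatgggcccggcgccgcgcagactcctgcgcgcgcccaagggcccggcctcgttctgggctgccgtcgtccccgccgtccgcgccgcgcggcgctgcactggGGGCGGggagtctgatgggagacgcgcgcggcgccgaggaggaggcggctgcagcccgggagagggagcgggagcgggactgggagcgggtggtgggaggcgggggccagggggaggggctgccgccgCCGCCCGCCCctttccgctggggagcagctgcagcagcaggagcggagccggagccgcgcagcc
Ska2, chr11:87109011-87109310 (plus strand): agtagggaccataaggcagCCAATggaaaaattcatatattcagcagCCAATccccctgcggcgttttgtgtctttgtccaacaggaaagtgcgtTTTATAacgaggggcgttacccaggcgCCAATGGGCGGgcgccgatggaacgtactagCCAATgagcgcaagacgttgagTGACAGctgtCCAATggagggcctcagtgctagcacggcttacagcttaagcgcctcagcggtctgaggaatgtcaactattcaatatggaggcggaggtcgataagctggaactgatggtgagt
Arntl, chr7:113207215-113207514 (plus strand): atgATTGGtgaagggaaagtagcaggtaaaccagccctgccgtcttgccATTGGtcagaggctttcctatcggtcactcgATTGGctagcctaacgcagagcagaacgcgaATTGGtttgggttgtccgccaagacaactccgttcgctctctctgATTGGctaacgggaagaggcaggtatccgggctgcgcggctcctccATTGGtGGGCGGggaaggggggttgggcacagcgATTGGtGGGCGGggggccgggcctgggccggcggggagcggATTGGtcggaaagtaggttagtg
Bnip3, chr7:138909457-138909756 (minus strand): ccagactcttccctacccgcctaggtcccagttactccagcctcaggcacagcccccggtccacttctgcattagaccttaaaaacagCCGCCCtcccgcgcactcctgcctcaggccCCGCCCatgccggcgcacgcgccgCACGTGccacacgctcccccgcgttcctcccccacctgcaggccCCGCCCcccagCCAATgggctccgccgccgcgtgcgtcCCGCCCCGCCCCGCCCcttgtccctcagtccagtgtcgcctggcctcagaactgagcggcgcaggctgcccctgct
Arrdc4, chr7:68749189-68749488 (minus strand): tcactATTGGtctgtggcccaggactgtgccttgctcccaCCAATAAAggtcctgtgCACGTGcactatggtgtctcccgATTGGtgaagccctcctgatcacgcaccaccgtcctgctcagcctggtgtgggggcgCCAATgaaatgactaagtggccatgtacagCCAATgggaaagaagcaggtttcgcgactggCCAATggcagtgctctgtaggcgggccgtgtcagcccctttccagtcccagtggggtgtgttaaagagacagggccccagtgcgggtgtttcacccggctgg
Atp5b, chr10:128083057-128083356 (plus strand): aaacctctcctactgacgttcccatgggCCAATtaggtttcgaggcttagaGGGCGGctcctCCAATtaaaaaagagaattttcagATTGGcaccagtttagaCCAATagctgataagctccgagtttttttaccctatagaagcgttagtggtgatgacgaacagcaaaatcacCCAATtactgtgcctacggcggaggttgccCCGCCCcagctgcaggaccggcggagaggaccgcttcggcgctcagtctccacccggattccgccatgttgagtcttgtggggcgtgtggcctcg
Top2a, chr11:99024140-99024439 (minus strand): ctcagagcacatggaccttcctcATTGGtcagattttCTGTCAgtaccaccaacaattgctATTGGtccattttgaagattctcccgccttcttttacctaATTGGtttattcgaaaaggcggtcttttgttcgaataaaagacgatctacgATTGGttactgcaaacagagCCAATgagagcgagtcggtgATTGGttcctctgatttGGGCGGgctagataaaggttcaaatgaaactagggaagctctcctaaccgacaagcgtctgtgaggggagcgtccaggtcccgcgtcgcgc
The Stx16 window held a single searched motif, GGGCGG, which Sp and Klf factors bind, and its summit lay 124 bp before the RefSeq start. In the Arntl, Ska2, Arrdc4, Atp5b and Top2a windows CCAAT, the site of the trimeric factor NFY, stood in several copies. The Bnip3 and Arrdc4 windows each held CACGTG, the E-box bound by clock and hypoxia factors of the basic helix-loop-helix class. In the Arrdc4 window one CCAAT overlaps the reverse complement of TTTATTG, the preferred site of posterior Hox proteins.

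The strong peaks lay at gene starts more often than the remaining peaks. The promoter class, which in this list holds peaks within 999 bp of a start site, took 305 of the 494 strong peaks, or 61.7% (57.3 to 66.0), against 39.8% (39.2 to 40.5) of the remaining peaks. Over the whole list the share was 40.3%. Introns took fewer, with 42 strong peaks (8.50%, 6.20 to 11.3) against 23.8% of the remaining peaks, and first introns accounted for 3.24% against 8.78%. Intergenic peaks were about equally frequent, at 127 strong peaks (25.7%, 21.9 to 29.8) and 25.3% of the remaining peaks.

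Gene bodies outside introns were little represented among the strong peaks. Exons held 7 strong peaks (1.42%) against 4.77% of the remaining peaks, and 3′ UTRs held 3 (0.607%) against 3.03%. The class just downstream of genes held 10 (2.02%, 0.975 to 3.69) against 2.86%. No strong peak was classed in a 5′ UTR, which allows a share of up to 0.744%, and the remaining peaks had 0.473% there. The 3 strong 3′ UTR peaks were assigned to Pln (74.7), which encodes phospholamban, the inhibitor of the sarcoplasmic reticulum calcium pump, to Mir26b (65.6) and to the glycolytic enzyme gene Gapdh (62.3).

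**Figure D1:**
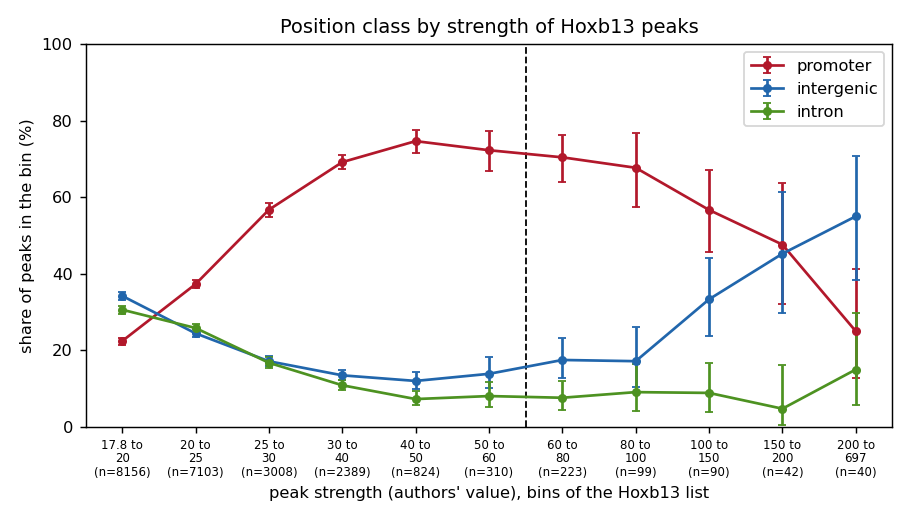
Share of Hoxb13 peaks in the promoter, intergenic and intron classes (y axis, percent) in bins of peak strength (x axis, low to high), with exact binomial 95% intervals as bars. The dashed line marks the threshold of 60. The promoter share is highest, 74.6%, between 40 and 50, and is 25% in the 40 peaks of at least 200, where 55.0% are intergenic.

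Position changed within the strong peaks. The promoter share was 70.4% among the 223 peaks between 60 and 80, 67.7% among the 99 between 80 and 100, 56.7% among the 90 between 100 and 150, 47.6% among the 42 between 150 and 200, and 25% among the 40 of at least 200. The intergenic share moved the other way and was 17.5%, 17.2%, 33.3%, 45.2% and 55.0% in the same bins. These bins are cut on the value that chose the peaks, and the shares are a description.

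The contrast with the remaining peaks depended on which of them were used. The 494 peaks next in rank, with strengths from 46.4 to 59.9, had a promoter share of 73.1% and an intergenic share of 13.4%. The strong peaks thus had a lower promoter share than the peaks just under the threshold and a higher one than the list as a whole. The first bin of the list, from 17.8 to 20, had a promoter share of 22.4%.

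Width set the strong peaks apart from the rest of the list. A fixed width of 396 bp was found in 254 strong peaks, or 51.4% (46.9 to 55.9), against 99.9% of the remaining peaks. The other 240 strong peaks were 99 to 620 bp wide, with a median of 201 bp. Of all 266 Hoxb13 peaks with another width, 240 (90.2%) were strong, and 26 were among the remaining peaks. No strong peak above a strength of 111 had the fixed width, which left 144 strong peaks above the highest peak of fixed width.

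**Figure D2:**
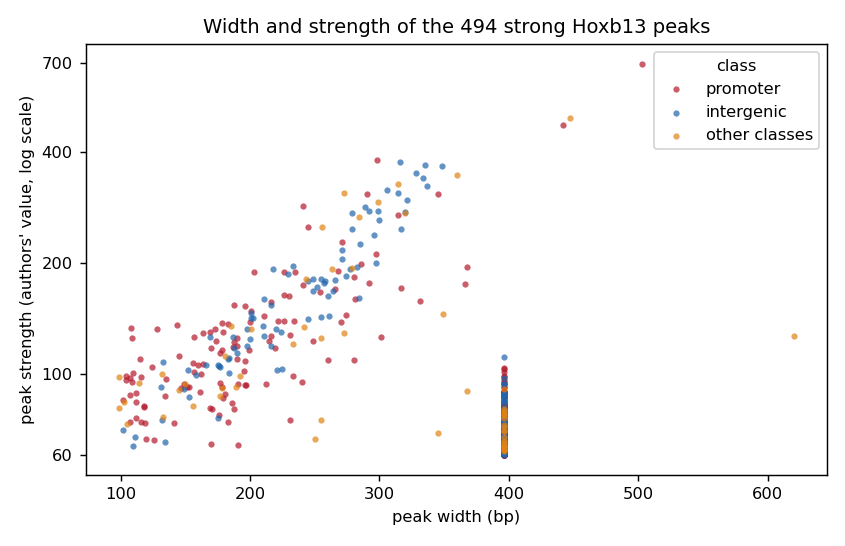
Strength (y axis, log scale, the authors' value) against width (x axis, bp) of the 494 strong Hoxb13 peaks, one point per peak, coloured by annotation class. The 254 peaks of 396 bp form a column between 60.1 and 111, and among the other 240 the strength is higher where the peak is wider.

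Among peaks of other widths, wider ones had higher strength. The 47 peaks of at most 150 bp had a median strength of 90.3, the 70 of 151 to 200 bp 106, the 47 of 201 to 250 bp 141, the 48 of 252 to 300 bp 191, and the 24 of 301 to 368 bp 286. Only 4 strong peaks were wider than 396 bp, and their median strength was 486. These were Stx16 (503 bp), Jun (447 bp), Grb10 (442 bp) and Malat1 (620 bp, strength 127).

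Width and position moved together. Promoter peaks made up 72.0% of the strong peaks of fixed width and 50.8% of those of other widths, and intergenic peaks 18.5% and 33.3%. Among peaks of the fixed width alone, the promoter share was 72.0% (66.1 to 77.5) of strong and 39.8% (39.2 to 40.5) of remaining peaks. Neither the peak caller nor the origin of the fixed width is stated in the labels or files.

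The median strong peak lay 162 bp from the nearest start site (interval of the median 87 to 277 bp), against 4.8 kb for the remaining peaks. Against the 494 peaks next in rank the order turned, since their median distance was 47.5 bp (12 to 91). A start site lay inside 147 strong peaks (29.8%, 25.8 to 34.0) and inside 19.7% of the remaining peaks. Outside promoters the strong peaks had a median distance of 28.6 kb (15 to 38.1), against 22.4 kb (21.8 to 23.1) for the remaining peaks, and these intervals overlap. More than 100 kb from a start site lay 44 strong peaks (8.91%, 6.55 to 11.8), against 10.3% of the remaining peaks.

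At promoters the summits of strong peaks were spread about equally over both sides of the start site, while those of the remaining peaks lay mostly downstream of it. The median summit position was 3 bp upstream of the assigned start for the 305 strong promoter peaks (interval 51 bp upstream to 43 bp downstream) and 103 bp downstream for the 8675 remaining promoter peaks (97 to 109 bp). The summit was upstream in 50.5% (44.7 to 56.2) of strong promoter peaks, against 36.3% of the remaining ones. Within 100 bp of the start lay 28.5% (23.5 to 33.9) of strong promoter summits, against 22.6%. Start sites of opposite direction within 1 kb were about as common, at 13.4% (9.82 to 17.8) of strong promoter peaks and 11.4% of the remaining ones.

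**Figure D3:**
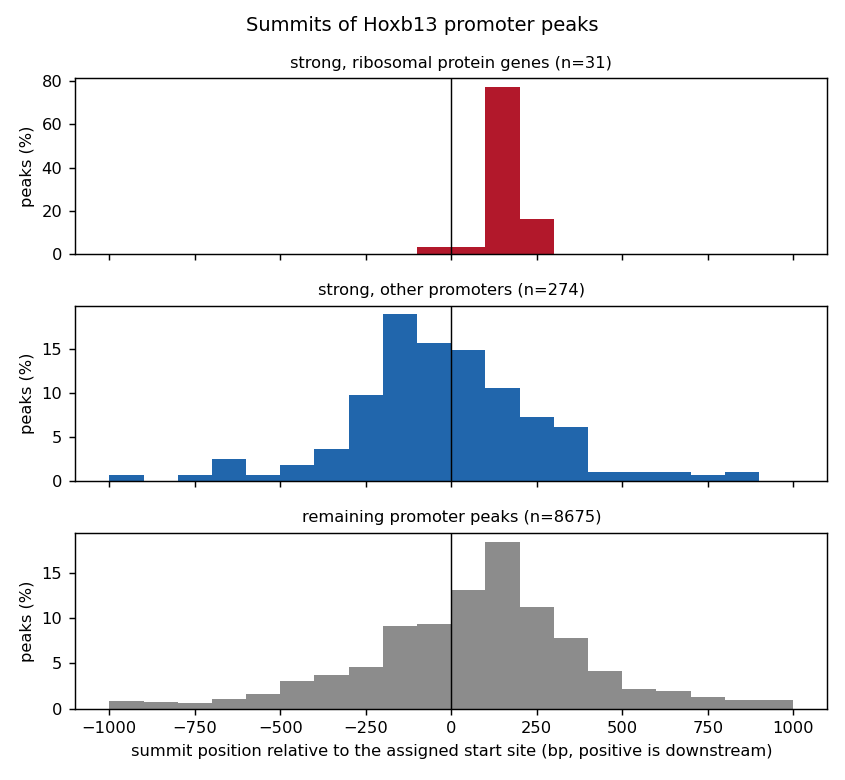
Position of peak summits relative to the assigned start site (x axis, bp, positive is downstream) as a percent of promoter peaks in 100 bp bins (y axis, scaled per panel), for strong peaks at ribosomal protein genes (top), other strong promoter peaks (middle) and remaining promoter peaks (bottom). Of the 31 ribosomal protein peaks 24 lie between 100 and 200 bp downstream, while the 274 other strong promoter peaks spread over both sides.

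The genes of cytosolic ribosomal proteins stood out among the promoters. Peaks assigned to Rpl and Rps genes, which encode the proteins of the large and small ribosomal subunits, numbered 31 of the strong peaks (6.28%) and 84 of the remaining ones (0.385%), and all 31 were in the promoter class. They fell on 31 of the 101 genes with such symbols (30.7%), beside 1.96% of all protein-coding genes. A Hoxb13 peak of any strength was found for 77 of the 101, beside 44.4% of all protein-coding genes. Among the 494 peaks next in rank 4 were assigned to Rpl and Rps genes. The strongest were Rps7 (285), Rpl13 (251), Rpl27 (190), Rps3a1 (189), Rpl11 (153), Rps6 (138), Rpl8 (136) and Rpl15 (132). The weakest were Rpl37a (61.4) and Rpl37 (60.6).

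Their summits shared a position. In 30 of the 31 the summit lay downstream of the start, by a median of 149 bp (interquartile range 130 to 187). The other 274 strong promoter peaks had a median summit 47.5 bp upstream, and 44.2% of them lay downstream. The 49 ribosomal protein promoter peaks among the remaining ones had a median of 145 bp downstream, with 67.3% downstream. Of the 31 peaks 14 had the fixed width.

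In the mitochondrial ribosomal protein, proteasome and complex I families no strong peak was found. Of all protein-coding genes 1.96% had one, so a count of 0 in families of this size is near that share. A Hoxb13 peak of any strength was found for 44.4% of all protein-coding genes. Mitochondrial ribosomal protein genes (Mrpl and Mrps) had 0 of 78, proteasome subunit genes (Psm) 0 of 40 and complex I genes (Nduf) 0 of 49, although 40, 20 and 32 of these genes had a weaker Hoxb13 peak. Translation factor genes (Eif and Eef), a symbol family added to those planned, had 5 strong peaks, on 5 of 71 genes (7.04%). All were at promoters: Eif4g3 (112), Eif3d (100), Eef2 (83.0), Eif1 (66.9) and Eif4g2 (64.5). The RNA genes Rprl3 (308) and Rprl2 (119), copies of the RNA part of ribonuclease P, had strong peaks 197 and 249 bp from their starts. Ribosomal protein genes and these RNA genes have near-identical copies elsewhere in the genome, and the labels do not state how reads that match several copies were treated, so their strengths are uncertain to that extent.

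The strong peaks were assigned to 471 genes, of which 430 were protein-coding. That is 1.96% of the 21887 protein-coding genes, and 44.4% of them had a Hoxb13 peak of any strength. Of the 471 genes 295 (62.6%) also had weaker Hoxb13 peaks. Among the 10510 other genes with a Hoxb13 peak, 4592 had more than 1. A Meis1 peak was assigned to 280 of the 471. The share of other genes with a Meis1 peak was not counted, so the 280 cannot be called many or few. By peaks, the assigned gene was protein-coding for 450, a long noncoding RNA for 29 (5.87% against 7.81% of the remaining peaks) and a microRNA for 8 (1.62% against 2.63%).

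Of 754 genes in 25 lists for heart function, housekeeping, regulation and cell types, 57 (7.56%) had a strong peak and 523 (69.4%) had a peak of any strength, and 10 lists had no gene with a strong peak. The lists were drawn up with earlier results of these data known and are given as counts. The share with a peak of any strength was 44.4% among protein-coding genes in general. Because the lists were chosen with results known, nothing is concluded from this difference. By list the share ran from 15.4% for Hox genes to 100% for circadian clock genes.

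**Figure D4:**
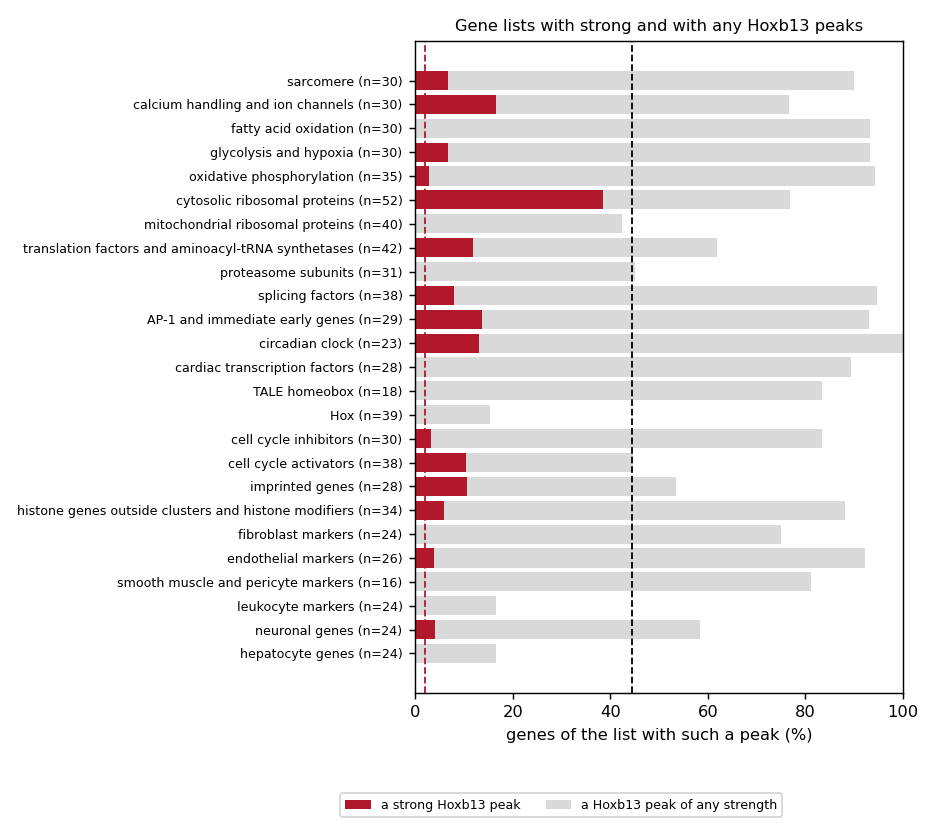
Percent of genes (x axis) of each of 25 lists (y axis, number of matched genes in brackets) with a strong Hoxb13 peak (red) and with a Hoxb13 peak of any strength (grey, drawn behind). Dashed lines mark the shares over all protein-coding genes, 1.96% (red) and 44.4% (black). Cytosolic ribosomal protein genes have the highest share with a strong peak, 38.5%, and 10 lists have none.

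In the contractile and calcium lists a few central genes carried strong peaks, 6.67% of sarcomere genes and 16.7% of calcium and channel genes. Of all protein-coding genes 1.96% had a strong peak and 44.4% a peak of any strength. Of 30 sarcomere genes 27 had a Hoxb13 peak and 2 a strong one, Actc1, the cardiac alpha-actin gene (145), and Ttn, the gene of the giant spring protein titin (64.5, in intron 2). Of 30 genes for calcium handling and ion channels 23 had a peak and 5 a strong one. These were the potassium channel gene Kcnh2 (88.9, 15 kb from its start), the calmodulin gene Calm3 (77.6), Pln (74.7), the calcium/calmodulin kinase gene Camk2d (70.7) and Atp2a2 (62.1), which encodes the calcium pump SERCA2 that phospholamban inhibits. Of 28 cardiac transcription factor genes 25 had a peak and none a strong one.

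Metabolic genes had a Hoxb13 peak of some strength in nearly all cases, beside 44.4% of all protein-coding genes. Strong peaks fell on 6.67% of glycolysis and hypoxia genes, 2.86% of oxidative phosphorylation genes and no fatty acid oxidation gene. The share over all protein-coding genes was 1.96%. Fatty acid oxidation genes had a Hoxb13 peak in 28 of 30 cases and a strong one in none. Oxidative phosphorylation genes had one in 33 of 35 cases, with 1 strong peak at Atp5b (64.9), which encodes the beta subunit of the ATP synthase. For glycolysis and hypoxia it was 28 of 30, with strong peaks at Bnip3 (116) and Gapdh (62.3).

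Some regulators of the clock and of the early response to stimuli had high values, while others lay below the strong-peak median of 83.5. Strong peaks fell on 13.0% of clock genes and 13.8% of AP-1 and immediate early genes. Of all protein-coding genes 1.96% had a strong peak and 44.4% a peak of any strength. All 23 circadian clock genes had a Hoxb13 peak and 3 had a strong promoter peak: Csnk1d (382), a kinase that phosphorylates the Period proteins, Arntl (144) and the nuclear receptor gene Rora (68.7). Among 29 genes of AP-1 and the immediate early response 27 had a peak and 4 a strong one, namely Jun (497, 109 kb upstream), Klf10 (110, 83.7 kb upstream), the MAP kinase phosphatase gene Dusp1 (92.1) and Fosl2 (62.8). The distances of Jun and Klf10 mean that the assignment rests on the nearest start site alone.

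Strong peaks at cell cycle genes were given to 10.5% of the genes that drive the cycle and 3.33% of those that restrain it, beside 1.96% of all protein-coding genes. A peak of any strength was found for 44.7% and 83.3% of them, beside 44.4% of all protein-coding genes. Of 38 genes that drive the cycle 17 had a peak and 4 a strong one: Cdk6, a kinase of the G1 phase (195, 243 kb away), the transcription factor gene E2f3 (144), the phosphatase gene Cdc25c (67.3) and the topoisomerase gene Top2a (61.4). Of 30 genes that restrain the cycle 25 had a peak and 1 a strong one, Cdkn2c (61.7), which encodes the Cdk4 and Cdk6 inhibitor p18. Hox genes themselves had a peak in 6 of 39 cases (15.4%) and TALE homeobox genes in 15 of 18 (83.3%), none of them strong.

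Among imprinted genes 15 of 28 (53.6%) had a peak and 3 (10.7%) a strong one, beside 44.4% and 1.96% of all protein-coding genes. Grb10, an adaptor that restrains insulin and growth factor signalling, had the peak ranked 3 in the list (474), over its start. The Airn peak (81.8) lay 6.89 kb from the start of that noncoding RNA, in intron 5 of Igf2r, the gene whose paternal copy Airn silences. The Ube3a peak (70.4) lay 185 kb away. Histone modifiers and related genes had a peak in 30 of 34 cases (88.2%) and a strong one in 2 (5.88%), beside the same 44.4% and 1.96%. The strong peaks were assigned to Bahcc1 (377, 30.9 kb away) and Ezh2 (64.3, 55.7 kb away), the methyltransferase of Polycomb complex 2.

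The lists for translation and splicing had 5 of 42 (11.9%) and 3 of 38 (7.89%) genes with a strong peak, against 1.96% of all protein-coding genes. The highest in translation was Iars (366), an isoleucyl-tRNA synthetase gene, whose peak was intergenic and 192 kb from its start. The splicing factor genes were Hnrnpa2b1 (68.0), Rbm20 (62.1), which encodes the regulator of titin splicing, and Hnrnpl (60.7).

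Among marker genes of other cell types strong peaks were about as rare as among all protein-coding genes (1.96%). A peak of any strength was found for 44.4% of all protein-coding genes. In these lists that share ran from 16.7% (leukocyte and hepatocyte) to 92.3% (endothelial). Fibroblast markers had 0 of 24 (18 with any peak), smooth muscle and pericyte markers 0 of 16 (13), leukocyte markers 0 of 24 (4) and hepatocyte genes 0 of 24 (4). Endothelial markers had 1 of 26 (24 with any peak), the Ephb4 peak (325) 1.1 kb upstream of the start. Neuronal genes had 1 of 24 (14), a peak assigned to the synaptic adhesion gene Nlgn1 (132) from 1589 kb away. A ventricle holds several of these cell types, and the peak list cannot tell which cells a peak came from.

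Some strong peaks away from promoters had a receptor gene of the nose or an uncharacterised gene as the nearest one. Olfactory receptor genes (Olfr) had 5 strong peaks and vomeronasal receptor genes (Vmn) 6, none at a promoter, and together these families supplied Olfr914 (371) and Vmn2r18 (341). Olfr peaks were 1.01% of the strong and 0.330% of the remaining peaks, and Vmn peaks 1.21% and 0.165%. By genes, 5 of 1110 Olfr genes (0.450%) and 6 of 355 Vmn genes (1.69%) had a strong peak, against 1.96% of all protein-coding genes. RIKEN cDNA genes had 26 strong peaks, 22 of them intergenic, which was 5.26% of strong and 6.58% of remaining peaks. Receptor families of this kind also consist of similar copies.

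The transcription factor family Klf had 4 of its 17 genes with a strong peak (23.5%, against 1.96% of all protein-coding genes). These were Klf7 (132), Klf10 (110), Klf3 (81.0) and Klf9 (71.6), with Klf7 and Klf3 at promoters and the others intergenic. The Klf family was added to the symbol families planned for counting, so its share is a description only. The family of nuclear factor I genes had the Nfia peak in intron 1 (310) and 2 Nfic peaks (135 and 66.7). MicroRNA genes with strong peaks included Mir3960 (163), Mir145a (76.2), Mir30a (69.1), Mir26b (65.6) and Mir133a-1 (62.0), the last a muscle microRNA. For genes of these families outside the lists, the examples were chosen after their values were seen.

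As listed, strong peaks lay near other strong peaks more often than the remaining peaks did, but less clearly with runs within 1 kb merged. Another strong peak lay within 10 kb of 32 strong peaks (6.48%, 4.47 to 9.02), and a strong peak lay within 10 kb of 2.61% (2.40 to 2.83) of the remaining peaks. At 1 kb the shares were 4.05% and 0.835%, and at 100 kb 17.4% and 11.1%. A Hoxb13 peak of any strength lay within 10 kb of 52.4% (47.9 to 56.9) of strong peaks and 50.4% of the remaining ones. Overlap with another Hoxb13 peak was found in 17.8% (14.5 to 21.5) of strong peaks, against 10.6%. Peaks of one run within 1 kb may be pieces of one site. With such runs merged the share of strong peaks with a strong neighbour within 10 kb was 3.31% (1.90 to 5.31). This interval holds the 2.61% of the remaining peaks, which was itself counted without merging. Of the strong peaks of fixed width, 1.18% (0.244 to 3.41) had another strong peak of fixed width within 10 kb. With any strong peak as the neighbour the share was 5.51% (3.05 to 9.08), against 2.56% (2.36 to 2.78) of remaining peaks of fixed width. At a strength of at least 100 the share was 1.16%. The median gap between successive strong peaks on a chromosome was 2421 kb.

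The 32 clustered peaks formed 14 clusters, of which 12 were assigned to a single gene each and 5 held promoter peaks only. The 4 largest had 3 strong peaks. At Actc1 they had strengths of 145, 89.7 and 67.1 within 5.28 kb, all in intron 4 of the noncoding gene C130080G10Rik, at 6.36, 5.99 and 1.42 kb from the Actc1 start. At Hes1, a Notch target that encodes a transcriptional repressor, they had strengths of 105, 95.1 and 141 within 6.65 kb, on both sides of the start.

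The other two clusters of this size lay at Malat1 and Bbc3. Malat1, a nuclear long noncoding RNA of very high abundance, had strengths of 127, 78.6 and 65.4 within 8.88 kb, from downstream of the gene to upstream of its start. Bbc3, which encodes the p53-induced cell death protein Puma, had strengths of 86.7, 69.8 and 77.4 within 4.25 kb, in its promoter, exon 2 and exon 3. Auts2 was also assigned 3 strong peaks, but they (94.6, 65.6 and 62.5) did not form a cluster of 3 within 10 kb, the first lying 147 kb inside the gene.

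In all 18 genes had more than 1 strong peak, 13 with 2 and 5 with 3. Pairs included the inhibitory Smad gene Smad7 (190 and 61.3), Nfic (135 and 66.7), the bromodomain gene Brd2 (81.8 and 60.9) and Pln (74.7 and 69.1). The Pln peaks lay within 0.82 kb of each other at the 3′ end of Pln, a gene that lies inside Cep85l. The second of them was annotated to intron 3 of Cep85l.

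The gene assigned by distance was often not the gene the peak lay in. Of the 52 strong peaks in introns, exons or 3′ UTRs, 44 had a host gene with an identifier, and in 25 it was the assigned gene and in 19 another. Host genes of the remaining peaks were not counted, so this is not shown to be particular to strong peaks. The peak assigned to Lbr (347), the lamin B receptor gene, lay in exon 6 of Enah, which encodes an actin regulator, 81.1 kb from Lbr. A peak assigned to Apol6 (69.8) lay in intron 1 of Mb, the myoglobin gene. The peak assigned to Jun lay in an exon of a transcript that the list does not name. These examples were chosen after their values were seen, apart from Lbr and Jun.

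Strong peaks took a larger share of the peaks on chromosome X than elsewhere. Of the 204 Hoxb13 peaks on X 15 were strong (7.35%, 4.17 to 11.8), against 479 of 22080 on the autosomes (2.17%, 1.98 to 2.37). Of these 15 peaks 10 were intergenic, 3 were at promoters and 13 had other widths than 396 bp. The highest were assigned to Fam47c (285), Lrch2 (277) and Btbd35f11 (274). The autosomes ranged from 1.49% on chromosome 14 to 2.70% on chromosomes 7 and 16.

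Overlap with Meis1 was found at about 1 in 10 strong peaks. At least 1 bp was shared with one of the 30534 Meis1 peaks by 48 strong peaks, or 9.72% (7.25 to 12.7), against 7.89% (7.54 to 8.26) of the remaining peaks and 7.93% over the list. These intervals overlap. With a reciprocal overlap of at least 50% the shares were 5.06% (3.30 to 7.38) and 3.31% (3.08 to 3.55), and with summits within 100 bp they were 4.66% (2.97 to 6.90) and 2.59% (2.39 to 2.81). The median gap between overlapping summits was 107 bp for strong peaks and 160 bp for the remaining ones.

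The overlap was not highest at the top. Among the strong peaks it was 13.8% at the fixed width and 5.42% at other widths, and it was 13.2% among the 494 peaks next in rank. Among peaks of the fixed width alone it was 13.8% (9.79 to 18.6) of strong and 7.88% (7.53 to 8.25) of remaining peaks. Of the 48 shared peaks 31 were at promoters. The strongest were assigned to Tle2, a Groucho corepressor gene (Hoxb13 351, Meis1 133), Lbr (347 and 18.1), Rpl13 (251 and 18.6), Ska2 (171 and 96.2) and Hes1 (141 and 25). Rpl13 was the 1 ribosomal protein gene whose strong peak overlapped Meis1. The highest Meis1 strength in a shared peak was 393, at A330074K22Rik, where the Hoxb13 strength was 80.5. Strengths of the 2 lists are on scales of their own and are not compared.

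The sequence under the strong promoter peaks was that of CpG-rich promoters. The 113 windows with a strong summit had a median G+C content of 64.0% and a median ratio of observed to expected CpG of 0.827, against 65.0% and 0.832 in 1973 windows with a remaining summit. The 26979 windows without a Hoxb13 peak had 50.7% and 0.299. The windows leave out summits more than 50 bp downstream of a start, so that the ribosomal protein genes, whose summits lie further in, have no window of their own here.

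Motifs were searched as exact matches on both strands. CCAAT was in 70 of the 113 strong windows (61.9%, 52.3 to 70.9), against 42.9% (40.7 to 45.1) of windows with a remaining peak, 36.9% without a peak and 37.4% of all windows. In windows with CCAAT, 72.9% of those with a strong peak and 56.7% of those with a remaining peak held at least 2 copies. The copy nearest to the summit lay a median of 21.5 bp away for strong peaks and 49.0 bp for remaining peaks, and within 50 bp in 48 of 70 (68.6%) and 51.4% of cases. GGGCGG was in 94 strong windows (83.2%, 75 to 89.6), against 75.7% with a remaining peak, 27.6% without a peak and 35.6% of all windows. Both motifs were present in 57 of the 113 windows.

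The Hox and Meis motifs were each in a minority of these promoter windows, though TTTATTG was more frequent with a strong than with a remaining summit. TTTATTG was in 8 strong windows (7.08%, 3.11 to 13.5), against 1.93% (1.37 to 2.63) with a remaining peak. The strong interval holds the 5.08% without a peak and the 4.60% of all windows. TTTACGA, a CpG-containing Hox site, was in none of the strong windows, which allows up to 3.21%, and in 0.597% of all windows. TGACAG, the Meis site, was in 17.7% (11.2 to 26), against 16.0% with a remaining peak, 19.9% without a peak and 19.2% of all windows. In the 8 windows with TTTATTG the nearest copy lay a median of 109 bp from the summit.

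The other motifs searched were each in under 10% of strong windows. CACGTG was in 9.73% of strong windows, 9.43% with a remaining peak and 7.15% of all windows. TATAAA was in 5.31%, 4.21% and 13.6%, and CCGGAAGT, the ETS site, in 4.42%, 7.81% and 3.89%. TGANTCA (AP-1) was in 2.65%, 3.90% and 7.81%, GCATGCGC (NRF1) in 2.65%, 3.75% and 2.71%, and AAGATGGC (YY1) in 1.77%, 5.32% and 2.74%. The cyclic AMP response sites TGACGTCA and TGACGCAA were in 3.54% and 1.77% of strong windows, 2.84% and 0.760% with a remaining peak, and 1.79% and 0.491% of all windows. A match is a run of letters and does not show that a factor sat there.

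**Figure D5:**
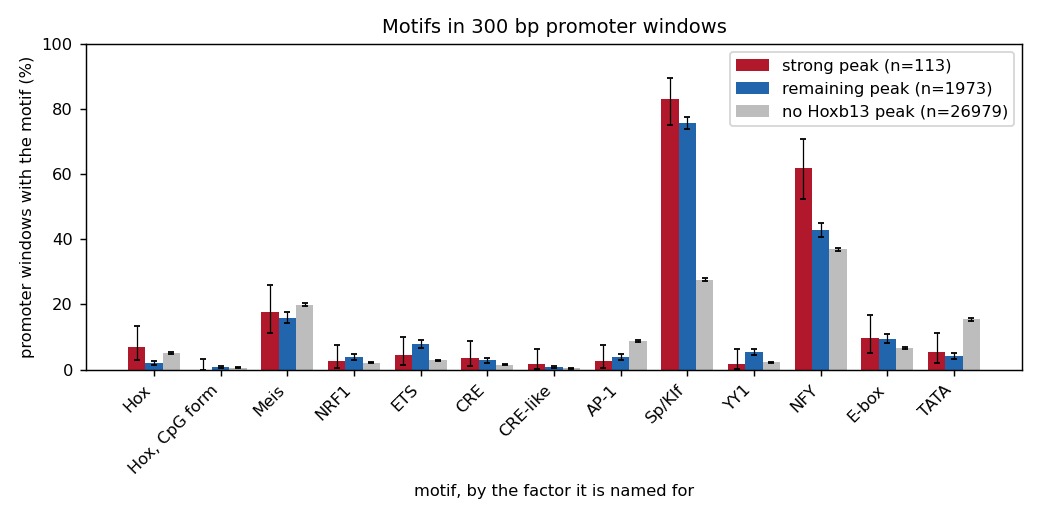
Percent of 300 bp promoter windows with each searched motif (y axis, with exact binomial 95% intervals) for windows holding the summit of a strong peak (red, n = 113), of a remaining peak (blue, n = 1973) or no Hoxb13 peak (grey, n = 26979), by the factor the motif is named for (x axis). The NFY motif is in 61.9%, 42.9% and 36.9% of these windows, and the Sp/Klf motif in 83.2%, 75.7% and 27.6%.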

How the data were processed

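The deposited files used were 2 annotated peak lists, 1 for Hoxb13 and 1 for Meis1, each covering 3 libraries. Peak strength is the authors' deposited signal value per peak, and the second deposited value is an unnamed score. Per the file headers these columns have only a number. The submitters' processing notes name the mm10 build and, in no stated order, ChIPseeker, deepTools 1.6, Picard and Bowtie2 2.2.3. No source used here names the peak caller. Annotation classes, distances and nearest genes are those of the deposited annotation. The threshold of 60, the strong peaks and the 25 gene lists were chosen with earlier results of these data known. Shares, medians, neighbours and overlaps (at least 1 bp) were computed in Python 3.11.15 with pandas 2.3.3 and scipy 1.17.1, and the code was tested on simulated peaks. No test between samples was possible, since each list has no value per library, and depth is unknown. Without a genome sequence, composition and motifs were read from RefSeq promoter windows in place of windows centred on summits. Genes named were those of the 20 strongest peaks, of the peaks beside the threshold, of the 3 strongest peaks per class and list, and of the largest clusters and strongest Meis1 overlaps, with exceptions marked in the text; some genes that this rule names are not reported here. Input libraries entered no comparison.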

Additional observations from a re-analysis of the deposited data

How the results depend on the processing

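The results followed the threshold on strength. The promoter share was 61.7% at 60, 65.8% at 50, 54.6% at 80 and 47.1% at 100, with 66.6% for any start site within 3 kb and 72.0% among peaks of the fixed width only. The median distance was 162 bp, and 388 bp at 80, 2049 bp at 100 and 38.5 bp at the fixed width. The share of fixed width was 68.8% at 50, 19.9% at 80 and 2.33% at 100. The share with a strong neighbour within 10 kb was 9.95% at 50, 4.06% at 80, 1.16% at 100 and 3.31% with runs merged. It was 1.18% with peak and neighbour both of the fixed width, 4.05% within 1 kb and 17.4% within 100 kb. The Meis1 overlap was 6.64% at 80, 5.23% at 100, 5.06% by reciprocal overlap, 4.66% by summits and 13.8% at the fixed width. Genes with more than 1 strong peak numbered 48 at 50, 7 at 80 and 3 at 100, and listed genes with a strong peak 25 at 100. Set against the 494 peaks next in rank in place of all remaining peaks, the comparison values were 73.1% for promoters and 47.5 bp for the distance, so that the strong peaks had the lower promoter share and the longer distance. A share or median counted as moved where it left the 95% interval of its value at 60, and a count where it changed by over 1.5 times. By this measure 28 values moved and 13 did not, among them the promoter share and distance without chromosome X and the CCAAT share and G+C content at 100. The fixed-width, chromosome X and sequence alternatives were chosen after seeing the data. The planned windows over whole peaks were not run, because no genome sequence was used here. No paired analysis was possible because each factor has 1 list over its 3 libraries and no column per replicate. The lists give no read counts, so no limit from depth could be set.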
